A study of Mus musculus with 15 samples.

Results

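The genes for amino acid and neurotransmitter transporters were followed in cultured mouse adipocytes held at 31°C. The members were the rows of the count table whose symbol begins with Slc1a, Slc3a, Slc6a, Slc7a, Slc36a, Slc38a or Slc43a and a number. The creatine transporter gene Slc6a8 was left out. This rule uses no measured value, but it was chosen with earlier results of these data known. There were 59 such rows among the 18804 genes of the table. Of these, 58 are named for a carrier, and the 59th, Slc7a6os, is named for its place opposite the neighbouring gene Slc7a6 and is not a carrier. The cells were mesenchymal stem cells of C57BL/6J mice, taken from the ears of wild-type animals, that had been differentiated into adipocytes in culture. All groups received the same inducers of differentiation, and all were harvested on day 16. The inducers were methylisobutylxanthine, dexamethasone, insulin and a thiazolidinedione. The labels name troglitazone, and the study's methods name both rosiglitazone and troglitazone, in different sections. The day 0 group stayed at 37°C throughout, the day 1 group was moved to 31°C for the last day, and the day 12 group was moved on day 4, so that it also spent most of its time as an adipocyte at the lower temperature. Each group had 5 libraries of bulk RNA, and nothing says whether these came from separate animals or separate dishes. The p-values therefore measure only the spread between these libraries, which may be technical.

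Amino acids cross the plasma membrane through carriers of the solute carrier (SLC) superfamily. The Slc1a family takes up glutamate or small neutral amino acids with sodium. The Slc6a family uses sodium and chloride to carry taurine, glycine, proline, GABA and the monoamine transmitters. Most of the later members of the Slc7a family are light chains, which reach the cell surface only when joined to a heavy chain, usually the Slc3a2 protein CD98, and which exchange one amino acid for another. The first members of the Slc7a family carry cationic amino acids on their own. The Slc38a and Slc36a families move amino acids with sodium or protons, at the plasma membrane or at the lysosome. In fat, the light chain encoded by Slc7a10 (asc-1) is known as a surface marker of white adipocytes and the carrier encoded by Slc36a2 (PAT2) as one of brown and beige adipocytes.

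The libraries held 64.6 to 133 M counts (M, mega), so that the floor of 3 counts lay between 0.0238 and 0.0428 CPM (the count scaled to a library of 1 M reads), a limit that covers counting error only. Levels are given in CPM after scaling by TMM (trimmed mean of M values), and levels of different genes are compared only per kilobase of exon. Changes are log2 fold changes with their standard errors (SE), and a gene is called when its Benjamini-Hochberg adjusted p over all 14293 genes tested was under 0.05 in the quasi-likelihood test of edgeR and its fold change was over 1.5. The adipocyte label was checked against 8 marker genes, all of which were detected, with a summed level of 4390 to 5010 CPM at day 0, 5320 to 5900 CPM at day 1 and 4690 to 5260 CPM at day 12. The library numbers in the labels form a series of 11 and a series of 4, and the smaller one holds 1, 2 and 1 libraries of the 3 groups, too few for values of its own. In bulk RNA, fewer cells of a type and less RNA per cell cannot be told apart.

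Of the 59 members, 44 had enough counts to be tested, 30 had a mean level of at least 1 CPM and 22 had a mean of at least 10 CPM. After 1 day at 31°C, 6 of the 44 were called higher (13.6%, against 7.71% of all genes tested) and 9 were called lower (20.5%, against 13.4%). After 12 days, 12 were called higher (27.3%, against 13.0%) and 9 lower (20.5%, against 16.2%). Between the cooled groups, 6 were called higher at day 12 than at day 1 (13.6%, against 10.6%) and 7 lower (15.9%, against 8.53%). The share called higher at day 12 was the one farthest from its background. Of these 12 members, Slc6a2, Slc6a13, Slc6a19, Slc7a4 and Slc38a4 had a mean under 1 CPM. With only genes at a mean of at least 1 CPM, 7 were called higher, and no background is given for genes of that level. The median log2 fold change of the tested members was 0.15 at day 1 and -0.02 at day 12, beside -0.01 and 0.01 for all genes. Both comparisons with day 0 share its 5 libraries. Across them 6 members were called higher at both times (Slc6a2, Slc6a6, Slc6a9, Slc6a13, Slc7a6 and Slc7a11), 4 were called lower at both times (Slc1a3, Slc7a10, Slc38a1 and Slc38a3), 1 (Slc7a4) was called in opposite directions, down at day 1 and up at day 12, and 19 were called at neither. The day 1 call of Slc6a13 rests on 7 counts in all. When the libraries were scaled to total counts alone, the median of all genes moved to 0.21 at day 12, and the lower calls made up 35.9% of all calls in place of 55.6%. In the larger library series alone, the calls among the members were 7 upward and 7 downward at day 1, with 12 upward and 11 downward at day 12. No share of all genes called is given for that series, so these counts cannot be set against a background.

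**Figure D1:**
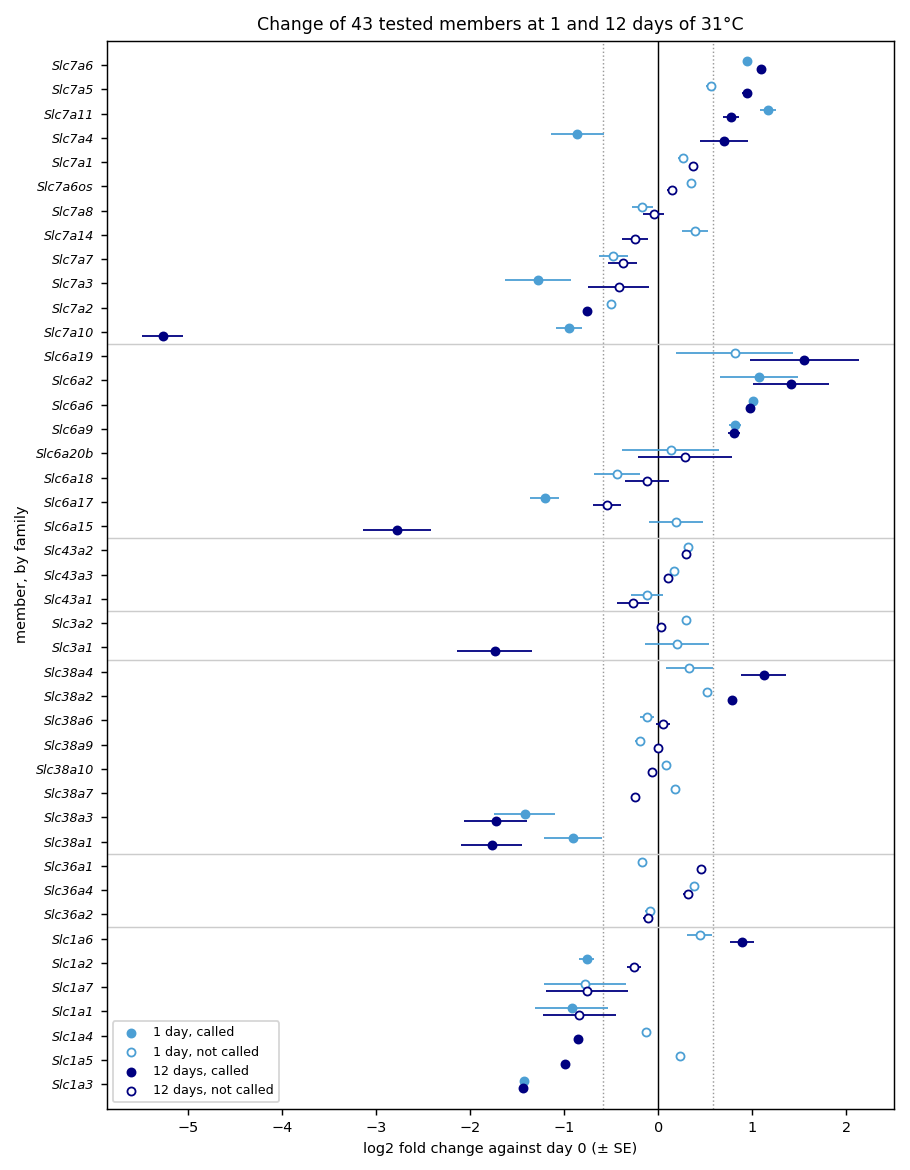
Log2 fold change against day 0 (± SE) of 43 tested members, grouped by family, at 1 day (light blue) and 12 days (dark blue) of 31°C, with filled points for called changes and dotted lines at a fold change of 1.5. Slc7a10 at day 12 lies far to the left of every other member plotted, at -5.27, and Slc6a13, with no count at day 0, is not drawn.

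Per kilobase of exon, a few carriers made up most of the transporter RNA. The 8 highest carriers held 84.2% of the summed CPM per kb of the 58 carriers at day 0, 85.9% at day 1 and 82.7% at day 12. At day 0 the highest was Slc1a5 (122 CPM per kb), a sodium-dependent carrier of glutamine and other neutral amino acids, followed by the heavy chain Slc3a2 (58.3), by Slc38a10 (57.6), by Slc1a4 (57.2), a carrier of alanine, serine and cysteine, and by the taurine carrier Slc6a6 (49.7). At day 12 the order had changed. Slc6a6 stood first at 97.0 CPM per kb, followed by Slc38a2 at 63.5, Slc1a5 at 61.1 and Slc3a2 at 59.6. The summed level of all members was 2370 ± 47.2 CPM (SD, n = 5) at day 0, 2800 ± 27 CPM at day 1 and 2420 ± 43.2 CPM at day 12. The highest day 0 library, at 2440 CPM, lay below the lowest day 1 library, at 2760 CPM, whereas the day 0 and day 12 libraries overlapped. That overlap depends on the scaling. As a share of total counts, the members made up 0.22 to 0.231% at day 0 and 0.266 to 0.272% at day 1. At day 12 the share was 0.259 to 0.268%, above every day 0 library.

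**Figure D2:**
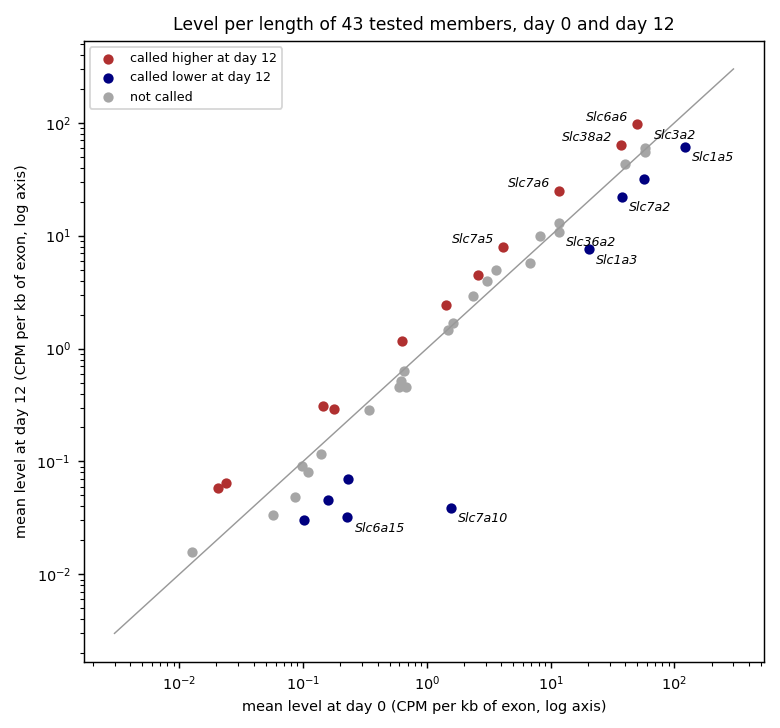
Mean level per kilobase of exon at day 0 (x axis) and day 12 (y axis), both on log axes in CPM per kb, of 43 tested members, with the line of equal levels. Called members (red higher, blue lower) occur over the whole range of levels, from Slc6a6 and Slc1a5 at the top to genes under 0.1 CPM per kb, and Slc7a10 lies farthest below the line.

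Among members with a mean of at least 1 CPM, the largest fold change was in Slc7a10 (chromosome 7, 35186385 to 35201114, GRCm38), the light chain that carries small neutral amino acids such as serine and glycine. Slc7a10 was at 3, 3.15, 3.5, 3.51 and 3.33 CPM in the day 0 libraries, at 1.81, 1.96, 1.79, 1.79 and 1.24 CPM in the day 1 libraries and at 0.14, 0.0252, 0.085, 0.0998 and 0.062 CPM in the day 12 libraries. Every day 1 library lay below every day 0 library, and every day 12 library lay far below both. The mean was 3.30 ± 0.223 CPM at day 0 (SD, n = 5), 1.72 ± 0.274 CPM at day 1 and 0.0825 ± 0.0428 CPM at day 12. Slc7a10 thus fell by 0.95 (SE 0.143) on the log2 scale at day 1 and by 5.27 (SE 0.216) at day 12, with adjusted p = 2.37e-06 and 1.07e-16 (edgeR). The day 12 level is close to the floor of 3 counts. Of its exon bases, 11.2% overlap Lrp3 on the opposite strand, a gene at 25.2 to 48.4 CPM in the group means, and the strand setting of the counting is not stated, so some of the remaining reads could belong to Lrp3. The PAT2 gene Slc36a2 gave a different picture. Slc36a2 was at 26.4, 33.2, 29, 27 and 27.1 CPM in the day 0 libraries, at 24.9, 26.1, 26.9, 29.1 and 26.9 CPM in the day 1 libraries and at 27.9, 27.6, 25.3, 24.6 and 26.4 CPM in the day 12 libraries. Its libraries overlapped between all groups, with means of 28.5 ± 2.76, 26.8 ± 1.53 and 26.3 ± 1.41 CPM, and it was called in no comparison.

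**Figure D3:**
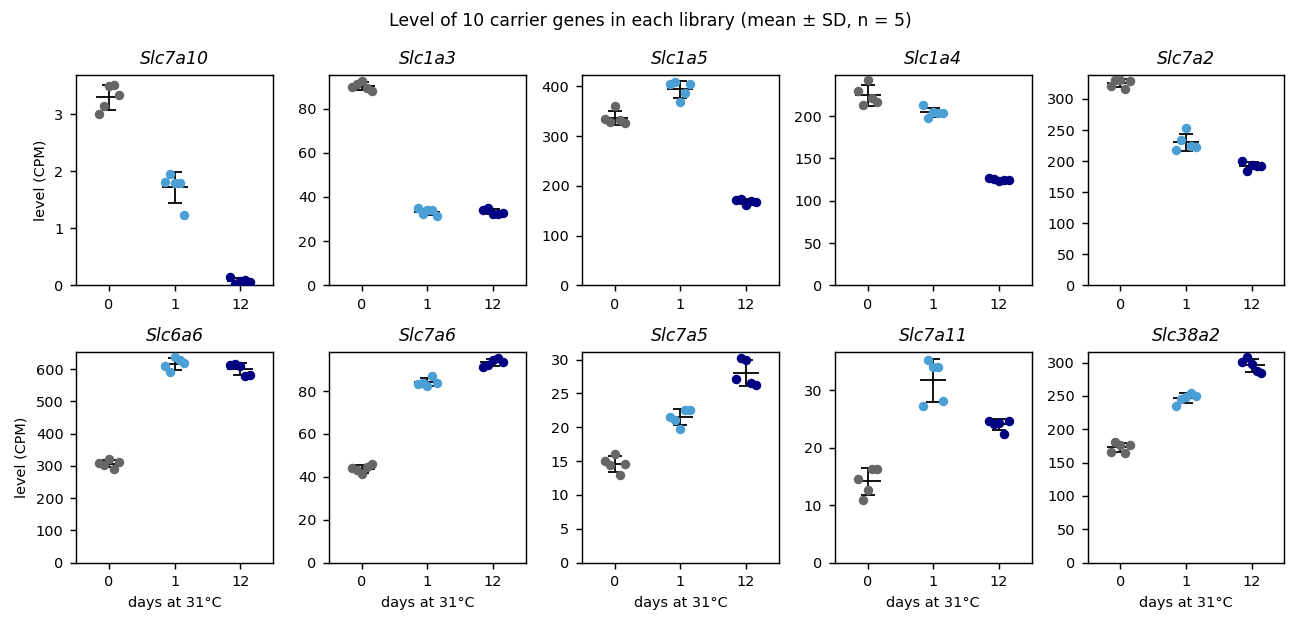
Level in CPM (y axes, each from 0) of Slc7a10, Slc1a3, Slc1a5, Slc1a4, Slc7a2, Slc6a6, Slc7a6, Slc7a5, Slc7a11 and Slc38a2 in each library after 0, 1 and 12 days at 31°C, with the mean and SD of the 5 libraries of each group. Slc1a3 and Slc6a6 reached their new level by day 1, Slc7a10, Slc1a5 and Slc1a4 were lowest at day 12, and Slc7a11 was highest at day 1.

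Other light chains rose. Slc7a6 (chromosome 8, 106168857 to 106198706), the y+LAT2 chain that exchanges cationic for neutral amino acids, had the largest increase at day 12 among the members with a mean of at least 1 CPM. Slc7a6 was at 43.9, 43.2, 41.1, 44.6 and 46 CPM in the day 0 libraries, at 83.4, 83.6, 82.5, 87.2 and 83.7 CPM in the day 1 libraries and at 91.4, 92.1, 94.5, 95.6 and 93.6 CPM in the day 12 libraries. The groups did not overlap. Its means were 43.8 ± 1.81, 84.1 ± 1.82 and 93.4 ± 1.71 CPM, an increase of 0.94 (SE 0.0299) at day 1 and 1.09 (SE 0.0299) at day 12 on the log2 scale, with adjusted p = 5.26e-20 at day 12 (edgeR). Slc7a6os, its neighbour on the other strand, was called at neither time and had means of 14.6, 18.6 and 16.2 CPM. Slc7a5 encodes LAT1, the carrier of leucine and other large neutral amino acids. Slc7a5 was at 15, 14.4, 16, 12.9 and 14.6 CPM in the day 0 libraries, at 21.5, 21.1, 19.8, 22.5 and 22.6 CPM in the day 1 libraries and at 27.2, 30.3, 30, 26.6 and 26.2 CPM in the day 12 libraries. The groups followed each other upward without overlap. The increase was 0.56 (SE 0.055) at day 1, short of the fold limit except without replicate 3 of day 0 (0.596) or of day 1 (0.591), and 0.94 (SE 0.0545) at day 12, which was called with adjusted p = 8.68e-14 (edgeR).

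Slc7a11 encodes xCT, which brings in cystine in exchange for glutamate and so feeds glutathione synthesis. Slc7a11 was at 14.6, 10.9, 12.6, 16.2 and 16.3 CPM in the day 0 libraries, at 27.3, 35.3, 34, 34 and 28.1 CPM in the day 1 libraries and at 24.7, 24.2, 24.3, 22.4 and 24.6 CPM in the day 12 libraries. All 10 cooled libraries lay above all day 0 libraries, and the day 1 libraries lay above the day 12 libraries. The increase was 1.17 (SE 0.0852) at day 1 and 0.77 (SE 0.0856) at day 12, with adjusted p = 1.07e-11 and 1.49e-08 (edgeR). The step from day 1 to day 12, -0.40 (SE 0.0831), was short of the fold limit. The enzyme genes for glutathione synthesis, Gclc and Gclm, the subunits of glutamate-cysteine ligase, were called higher at day 1, by 1.04 and 0.95 on the log2 scale, and not at day 12.

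Slc7a11 is a known target of the factor ATF4, which binds composite C/EBP-ATF elements of the form TGATGNAA. The 250 bases before its annotated start are shown here because they hold that motif more than once, in capitals below, a search that was chosen after the expression values were seen. The sequence is from the RefSeq promoter table of GRCm38.p6, chr3:50443614-50443863, minus strand, and is written 5′ to 3′ in the direction of transcription.
Slc7a11: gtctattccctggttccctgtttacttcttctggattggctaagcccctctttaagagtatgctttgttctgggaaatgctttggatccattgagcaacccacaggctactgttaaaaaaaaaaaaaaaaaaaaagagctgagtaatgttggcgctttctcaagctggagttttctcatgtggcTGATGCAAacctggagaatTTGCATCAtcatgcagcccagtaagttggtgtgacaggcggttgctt
One match, read on the strand of the gene, begins 66 bases before the start, and the other, read on the opposite strand, covers the bases from 47 before it. The motif was searched on both strands of the same stretch of every promoter in the table and occurred in 3.45% of 32851 windows. Windows were found for 43 members, and 2 of these held a match, Slc7a11 and the y+LAT1 gene Slc7a7. Counted as windows, 3 of the 64 windows of members held a match. Slc7a7 was called in no comparison (means of 1.58, 1.12 and 1.21 CPM). Slc7a7 has a match in the windows of both its annotated starts. In the window not shown, the match is TGATGCAA, the same letters as in Slc7a11, 243 bases before the start. The other window, with TGATGAAA, is shown here for comparison (chr14:54417945-54418194, minus strand, with the match 141 bases before the start).
Slc7a7: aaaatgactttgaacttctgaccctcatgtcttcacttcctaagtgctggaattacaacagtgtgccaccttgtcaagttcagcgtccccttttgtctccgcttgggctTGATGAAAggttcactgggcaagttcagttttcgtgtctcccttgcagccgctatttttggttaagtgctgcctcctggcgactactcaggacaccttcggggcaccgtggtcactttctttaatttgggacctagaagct
A match describes only these letters in these windows. The mRNA of Atf4 itself was called higher at day 1 (132 CPM at day 0, 218 CPM at day 1, log2 fold change 0.72). It was not called at day 12 (177 CPM). Among other factors of the amino acid response, Atf3 (0.76) was called higher at day 1. Ddit3 (-0.81), Ddit4 (-0.64) and Cebpg (-0.76) were called lower at day 1. Whether ATF4 had a part in the change of Slc7a11 was not tested.

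The heavy chain Slc3a2 and the light chains moved by different amounts. Slc3a2 was at 179, 176, 182, 168 and 177 CPM in the day 0 libraries, at 212, 211, 209, 218 and 224 CPM in the day 1 libraries and at 172, 186, 180, 188 and 174 CPM in the day 12 libraries. Every day 1 library was above every day 0 library, and the day 12 libraries overlapped those of day 0. The change was 0.29 (SE 0.0296) at day 1 and 0.03 (SE 0.0296) at day 12, and neither was called. The 6 light chains that pair with CD98 and were tested (Slc7a5, Slc7a6, Slc7a7, Slc7a8, Slc7a10 and Slc7a11) summed to 20.1 ± 0.55 CPM per kb at day 0, 33.6 ± 0.738 at day 1 and 36.5 ± 0.702 at day 12. The ratio of this sum to Slc3a2, which does not depend on how libraries are scaled, was 0.33 to 0.36 at day 0, 0.449 to 0.483 at day 1 and 0.586 to 0.628 at day 12, with no overlap between groups. The composition shifted as well. Slc7a10 made up 7.79% ± 0.54 of the light chain sum at day 0, 2.42% ± 0.38 at day 1 and 0.108% ± 0.0569 at day 12, while Slc7a6 made up 58.2% ± 1.72, 66.7% ± 0.451 and 68.3% ± 1.42. Slc7a8, the LAT2 gene, was at 2.69 ± 0.197, 2.39 ± 0.363 and 2.60 ± 0.319 CPM, and was called in no comparison. These are RNA levels, and no protein was measured in these files.

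**Figure D4:**
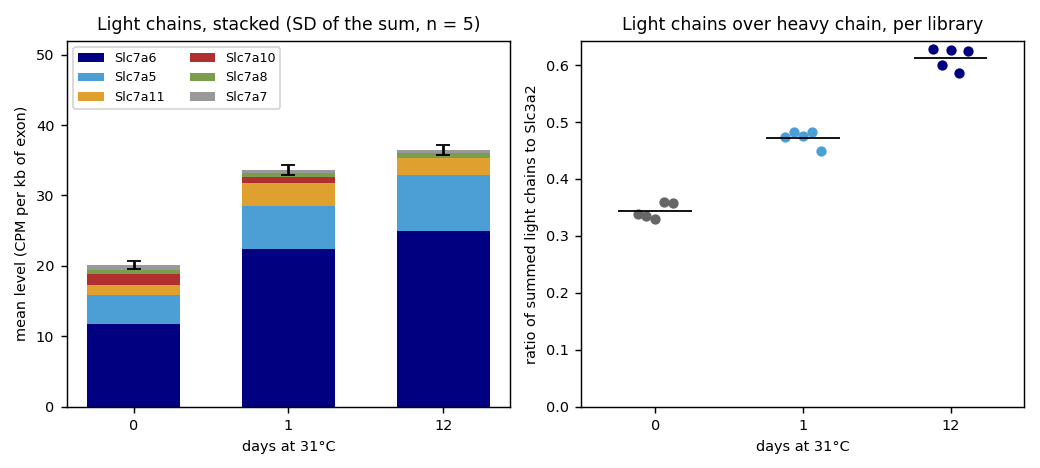
Left, mean level in CPM per kb of exon of 6 light chain genes at 0, 1 and 12 days of 31°C, stacked, with the SD of their sum (n = 5). Right, the ratio of that sum to the heavy chain Slc3a2 in each library, with the mean as a line. The ratio rises from 0.344 to 0.473 and 0.613 with no overlap between groups, and the Slc7a10 layer is no longer visible at day 12.

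The other heavy chain, Slc3a1 (rBAT), partner of the cystine carrier Slc7a9 in kidney, was low. Its group means were 0.362 ± 0.091, 0.407 ± 0.186 and 0.104 ± 0.0627 CPM, and the last was called lower than the others. Slc3a1 shares 26.5% of its exon bases with Prepl on the opposite strand, and Slc7a9 had at most 4 counts in any library.

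Among the Slc7a genes of the cationic amino acid carrier branch, which are not light chains, Slc7a2 (CAT2) was the most abundant per kilobase of exon. Slc7a2 was at 321, 330, 331, 316 and 329 CPM in the day 0 libraries, at 218, 234, 253, 225 and 223 CPM in the day 1 libraries and at 200, 184, 193, 192 and 192 CPM in the day 12 libraries. The groups followed each other downward without overlap. Slc7a2 fell by 0.50 (SE 0.0335) at day 1, short of the fold limit, and by 0.76 (SE 0.0336) at day 12, with adjusted p = 4.78e-16 (edgeR). With scaling to total counts the day 12 value was -0.566, just short of the limit. Slc7a1 (CAT1), the widespread carrier of arginine and lysine, went the other way by a smaller amount, from 22.2 ± 1.13 CPM to 26.7 ± 1.7 and 28.7 ± 1.57 CPM, with log2 fold changes of 0.26 and 0.37 that were not called. Slc7a14 was at 1.37, 1.80 and 1.15 CPM. It was called only between the cooled groups, at -0.65 (SE 0.139), and this call was lost without replicate 5 of day 12 (-0.585) and in the larger library series alone (-0.583). Slc7a3 and Slc7a4 were low in every group. Slc7a4 had means of 0.622, 0.348 and 1.02 CPM and was called lower at day 1, though not in the larger library series alone (-0.747), and higher at day 12, the latter not without replicate 2 or replicate 4 of day 12 (0.594 and 0.597 on the log2 scale). Slc7a3 had means of 0.317, 0.131 and 0.235 CPM and was called lower at day 1. Its higher call from day 1 to day 12 was lost without replicate 1, 3 or 5 of day 1 or replicate 1, 2 or 4 of day 12, with values from 0.664 to 0.878.

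Of the 5 glutamate carriers of the Slc1a family, 3 were called lower at day 1 (Slc1a2, Slc1a3 and, in a call lost under several alternatives, Slc1a1), when 13.4% of all genes were. Slc1a3 (chromosome 15, 8634124 to 8710764), the glutamate and aspartate carrier known as GLAST or EAAT1 from glia, was by far the most abundant of them per kilobase of exon. Slc1a3 was at 89.9, 91.3, 92.4, 89.2 and 87.8 CPM in the day 0 libraries, at 34.8, 32.3, 34, 34.3 and 31.6 CPM in the day 1 libraries and at 34, 34.9, 32.5, 32.2 and 32.9 CPM in the day 12 libraries. The cooled libraries formed one band, well below all day 0 libraries. Slc1a3 fell by 1.43 (SE 0.0329) at day 1 and by 1.44 (SE 0.0328) at day 12 on the log2 scale, with adjusted p = 6.35e-21 and 1.86e-21 (edgeR), and the cooled groups differed by 0.00 (SE 0.0334). Slc1a2, the carrier known as GLT-1, had means of 7.47 ± 0.438, 4.42 ± 0.477 and 6.25 ± 0.569 CPM. It was called lower at day 1, at -0.76 (SE 0.0807), and not at day 12, at -0.26 (SE 0.0785). Slc1a6, the carrier EAAT4 of cerebellar neurons, was called higher at day 12, at 0.89 (SE 0.129), with a level of 1.27 ± 0.216 CPM at day 0 and 2.36 ± 0.166 CPM at day 12. Slc1a1 and Slc1a7 stayed under 1 CPM in every library. The lower call of Slc1a1 at day 1 was lost in 7 of the alternatives tried, including the one without replicate 1 of day 0 (-0.413), and 32% of its exon bases lie in another gene.

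The neutral carriers of the family fell late. Slc1a5 was at 334, 329, 360, 332 and 326 CPM in the day 0 libraries, at 405, 408, 368, 387 and 404 CPM in the day 1 libraries and at 171, 174, 162, 169 and 168 CPM in the day 12 libraries. Slc1a5 (chromosome 7, 16781340 to 16798274) was thus above day 0 in every day 1 library and below both other groups in every day 12 library, with means of 336 ± 13.8, 394 ± 16.9 and 169 ± 4.35 CPM. Its change was 0.23 (SE 0.032) at day 1, which was not called, -0.99 (SE 0.0324) at day 12, with adjusted p = 1.37e-18 (edgeR), and -1.22 (SE 0.0326) from day 1 to day 12. Slc1a4 was at 229, 213, 243, 221 and 216 CPM in the day 0 libraries, at 213, 198, 205, 203 and 204 CPM in the day 1 libraries and at 127, 126, 123, 124 and 124 CPM in the day 12 libraries. The day 1 libraries of Slc1a4 reached up to the lowest day 0 library, and all day 12 libraries lay far below both groups. It fell by 0.85 (SE 0.0315) at day 12, with adjusted p = 1.76e-17 (edgeR), and by 0.13 (SE 0.0312) at day 1. From day 1 to day 12 it fell by 0.71 (SE 0.0316), a call that was lost with scaling to total counts (-0.541).

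Slc6a6 (chromosome 6, 91684053 to 91759066), the taurine carrier, gained more CPM than any other member. Slc6a6 was at 308, 304, 322, 290 and 312 CPM in the day 0 libraries, at 609, 591, 637, 629 and 618 CPM in the day 1 libraries and at 613, 615, 611, 580 and 581 CPM in the day 12 libraries. All cooled libraries lay far above all day 0 libraries, and the cooled groups overlapped. Its means were 307 ± 11.4, 617 ± 18.1 and 600 ± 17.6 CPM. The increase was 1.01 (SE 0.0298) at day 1 and 0.97 (SE 0.0298) at day 12, with adjusted p = 6.60e-19 and 4.68e-19 (edgeR), and the cooled groups differed by -0.04 (SE 0.0295). The enzyme gene Cdo1, whose product begins the synthesis of taurine from cysteine, was called lower at both times, from 816 ± 22.7 CPM to 523 ± 12.6 and 361 ± 15.4 CPM. Csad, which encodes the next enzyme of that path, was called in neither comparison with day 0, at 50.8, 36.8 and 44.4 CPM.

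The glycine carrier Slc6a9 (GlyT1) rose by 0.81 (SE 0.0643) at day 1 and 0.80 (SE 0.0642) at day 12. Its level went from 9.51 ± 1.11 CPM to 16.7 ± 0.675 and 16.6 ± 1.02 CPM, with no overlap between the day 0 and the cooled libraries. Its exons share 42.3% of their bases with Ccdc24 and Gm17114 on the opposite strand, and Ccdc24 itself had means of 2.42, 1.08 and 1.31 CPM, lower in the cooled groups. Slc6a17, a vesicular carrier of neutral amino acids known from neurons, had means of 4.27 ± 0.454, 1.87 ± 0.555 and 2.91 ± 0.448 CPM. It was called lower at day 1, at -1.21 (SE 0.155), and short of the limit at day 12, at -0.55 (SE 0.148). The day 12 value passed without replicate 4 of day 0 (-0.605), replicate 1 (-0.614) or 5 (-0.59) of day 12, and in the larger library series alone (-0.606). The call of its increase from day 1 to day 12, 0.66 (SE 0.159), was lost in that series (0.556) and without replicate 3 of day 1 (0.509), which at 1.1 CPM was the lowest library of that group.

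Other members of the Slc6a family were near the limit of detection, and those described here were chosen after their values were seen. Slc6a13, the GABA carrier GAT2, had no count in any day 0 library. At day 1 it had 6 counts in replicate 2, 1 count in replicate 1 and none in the other three. At day 12 it had 33, 25, 19, 17 and 33 counts, or 0.292 ± 0.0517 CPM, which is at least 9.58-fold higher than the day 0 floor of 3 counts per library. Its call at day 1 was lost without any single day 0 library, and no fold is given for it. The neutral carrier Slc6a15 was at 0.441 to 1.11 CPM at day 0, 0.666 to 1.45 CPM at day 1 and 0.0243 to 0.22 CPM at day 12, with no overlap between day 12 and the other groups, and it was called lower at day 12. Slc6a2, the noradrenaline carrier of sympathetic neurons, had means of 0.150, 0.322 and 0.404 CPM and was called higher at both times, though at day 1 not without replicate 3 or 4 of day 0 or replicate 1 or 3 of day 1 (0.833 to 0.957). Slc6a19, the neutral carrier of gut and kidney, was called higher at day 12 from 0.0816 to 0.230 CPM, and the call was lost without replicate 1 of day 0 (1.21). The carriers of dopamine (Slc6a3) and serotonin (Slc6a4) were among 9 Slc6a genes that were not tested. Over all families, the 15 members not tested had at most 1 to 14 counts in any library, which leaves changes in them hard to detect. With no filter on low counts, 7 members were called higher and 8 lower at day 1, with 12 and 10 at day 12. From day 1 to day 12 the calls were then 5 upward and 9 downward. Whether the added calls lay in these 15 members is not given.

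In the Slc38a family, Slc38a2 (SNAT2), a sodium-coupled carrier of alanine and glutamine that is known to respond to amino acid supply, rose in steps. Slc38a2 was at 166, 181, 176, 164 and 176 CPM in the day 0 libraries, at 235, 245, 249, 254 and 250 CPM in the day 1 libraries and at 301, 309, 298, 287 and 285 CPM in the day 12 libraries. The groups did not overlap. The increase was 0.52 (SE 0.0309) at day 1, short of the fold limit, and 0.78 (SE 0.031) at day 12, with adjusted p = 6.02e-17 (edgeR). Slc38a1 (SNAT1), its close relative, was far lower in level per kilobase at day 0 (0.102 against 37.0 CPM per kb) and fell. Its means were 1.09 ± 0.363, 0.592 ± 0.273 and 0.322 ± 0.0995 CPM, with log2 fold changes of -0.91 (SE 0.306) and -1.77 (SE 0.325), both called. The call at day 1 was lost in the larger library series alone (-0.579), and that from day 1 to day 12, -0.86 (SE 0.342), without replicate 1, 2 or 4 of day 1 or replicate 1, 3 or 5 of day 12 (-0.807 to -0.672). Slc38a3 (SNAT3) was also called lower at both times, with means of 0.813, 0.304 and 0.248 CPM, and Slc38a4 (SNAT4), a carrier known from liver, was called higher at day 12, with means of 0.592, 0.742 and 1.28 CPM. Slc38a9, the lysosomal arginine sensor upstream of mTORC1, stayed within 11 to 13.7 CPM in every library. Slc38a10, Slc38a6 and Slc38a7 were called in no comparison.

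No member of the Slc36a and Slc43a families was called against day 0. Slc36a1 (PAT1), a proton-coupled carrier of the lysosome, had means of 19.6 ± 0.995, 17.4 ± 0.564 and 26.7 ± 1.00 CPM. It was called higher from day 1 to day 12, at 0.61 (SE 0.0415), and was short of the limit against day 0, at 0.45 (SE 0.0409), a value that passed with scaling to total counts (0.642). Slc36a4 (PAT4) was at 15.5, 20.1 and 19.2 CPM, with log2 fold changes of 0.38 and 0.31. Slc43a2 (LAT4), which lets out branched-chain amino acids and phenylalanine, was at 58.7 ± 2.38, 73.2 ± 2.24 and 71.5 ± 5.03 CPM, with log2 fold changes of 0.32 and 0.29. Slc43a3, a nucleobase carrier in spite of its family name, was at 104, 116 and 111 CPM.

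Genes that work beside the carriers were read from the same fit as counts, and none of these lists was tested as a set. Of 32 enzymes of amino acid metabolism tested, 5 were called upward and 8 downward at day 1, with 5 upward and 9 downward at day 12. These shares were 15.6% and 25% at day 1, against 7.71% and 13.4% of all genes, and 15.6% and 28.1% at day 12, against 13.0% and 16.2%. Among the enzymes of serine synthesis, Phgdh was called higher by 0.66 and 1.84 on the log2 scale, Psat1 by 1.84 at day 12 and Psph by 0.80 and 0.86. Those called lower at both times included Cth and Cbs, which make cysteine from homocysteine (-1.0 and -1.43 for Cth, -0.85 and -1.87 for Cbs), the branched-chain transaminase Bcat2 (-0.84 and -0.70) and the proline enzyme Pycr1 (-1.03 and -1.37). Of 24 genes of amino acid sensing by mTORC1, Rragc and Sec13 were called higher at day 1 (8.33%, near the 7.71% of all genes). At day 12 Rragd was called higher (4.17%, against 13.0%), and Rragb and the leucine sensor Sesn2 (-0.88) were called lower (8.33%, against 16.2%). The call of Rragd was lost without replicate 2 (0.426) or 3 of day 0 or replicate 1 or 2 of day 12, and that of Rragb without replicate 2 of day 0 (-0.577), without replicate 2 of day 12 (-0.562) and with total counts (-0.462). Of 16 factors of the amino acid response, Atf4 and Atf3 were called higher at day 1. Ddit3 (-0.81 and -1.20), Ddit4 (-0.64 and -1.59) and Cebpg (-0.76 and -0.60) were called lower at both times, and Nupr1 and Vldlr were lower and Myc higher at day 12. The shares of these factors were 12.5% higher and 18.8% lower at day 1, against 7.71% and 13.4% of all genes, and 6.25% and 31.2% at day 12, against 13.0% and 16.2%. The day 12 call of Cebpg was lost without replicate 2 of day 0 (-0.578) and with total counts (-0.403). Of 13 tested carriers that the rule leaves out, Slc6a8 among them, 1 was called lower at day 1 (the vesicular glutamate carrier Slc17a7, 7.69% against 13.4% of all genes) and 2 higher at day 12 (15.4% against 13.0%, the peptide carrier Slc15a2 and the vesicular glutamate carrier Slc17a6), with group means of at most 0.314 CPM for Slc15a2, 0.226 CPM for Slc17a6 and 0.234 CPM for Slc17a7. The call of Slc17a7 was lost without replicate 1 or 3 of day 0 or replicate 1 or 5 of day 1 (-1.02 to -0.81), in the larger library series alone (-0.791) and with no filter on low counts.

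Markers of other cell types moved with some of these groups. The summed level of 6 mesothelial markers was 9.9 to 11.4 CPM at day 0, 12.7 to 15 CPM at day 1 and 29.7 to 43.9 CPM at day 12, of which Msln made up 29.3 CPM in the day 12 mean, while Wt1 had at most 3 counts in any library. Of the 4 mesothelial markers tested, 1 was called higher at day 12 against day 0. The rise of the sum coincided with the day 12 appearance of Slc6a13 and the day 12 increases of other low members. Other low members were called lower at day 12, namely Slc6a15 (-2.78), Slc3a1 (-1.74), Slc38a1 (-1.77) and Slc38a3 (-1.73 on the log2 scale). The 6 neuron and glia markers summed to 59.4 to 63.8, 72.5 to 79.3 and 62.2 to 71 CPM, nearly all of it S100b, which adipocytes also express. Of the 4 neuron and glia markers tested, 2 were called higher and 1 lower at day 12 against day 0. The 8 stromal markers summed to 1470 to 1540, 1510 to 1590 and 1320 to 1330 CPM, and 4 macrophage and leukocyte markers to 25.4 to 32.5, 41.3 to 47.4 and 28 to 31.9 CPM, with the higher values at day 1, as for Slc7a11 and Slc3a2. Cartilage markers, from cells that ears also hold, summed to 266 to 325, 264 to 299 and 234 to 297 CPM. Endothelial markers summed to 0.524 to 0.689, 0.282 to 0.903 and 0.921 to 1.47 CPM, and 2 of the 3 tested were called higher at day 12. Muscle markers stayed at or under 0.398 CPM and keratinocyte markers at or under 0.0952 CPM. Among the adipocyte markers 3 were called lower and 1 higher at day 12. The part of these cells in the transporter values was not tested.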

How the data were processed

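RNA of cultured adipocytes was sequenced on an Illumina instrument in 15 libraries, 5 after each of 0, 1 and 12 days at 31°C. The analysis began from deposited raw counts per gene, which the authors made by aligning reads to mm10 with TopHat 2.0.13 and Bowtie2 2.2.1 and counting with HTSeq; the strand setting is not given in the sources used here. The authors also deposited regularized log2 values and DESeq2 fold changes with p-values, which were not used.

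Counts were scaled by TMM, genes with few counts were removed (filterByExpr, minimum count 10), and 14293 genes were tested by quasi-likelihood in edgeR 4.0.16 (R 4.3.3), all 15 libraries in one fit without covariates. The thresholds were those of the study, an adjusted p of 0.05 and a fold change of 1.5. SE was the log2 fold change divided by the root of its F value. Totals of 64.6 to 133 M counts (M, mega) and a common dispersion of 0.00276 (a coefficient of variation of 5.25%) set the precision. The fit was tested on simulated data. Exon lengths, overlaps and coordinates came from GENCODE for GRCm38 (mm10), and promoters from RefSeq.

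Fold changes are given for 20 fixed members, for the 6 largest called increases and decreases of each comparison at a mean of at least 1 CPM, 24 in all, and otherwise where stated. Members, lists and the naming rule were chosen with earlier results of these data known. The alternatives were total counts as scaling, DESeq2 1.42.0, other filters, no fold limit, each library left out, a replicate block, and the library series alone or as a covariate.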

Additional observations from a re-analysis of the deposited data

Results flagged for a closer look

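In 4 of 72 groups of 5 libraries checked over the 24 named members, 1 library stood apart from the others by Dixon's test, a number that chance alone gives at about 1 in 20 groups. These were Slc1a5 in replicate 3 of day 0 at 360 CPM, Slc7a6 in replicate 4 of day 1 at 87.2 CPM, Slc7a10 in replicate 5 of day 1 at 1.24 CPM and Slc7a11 in replicate 4 of day 12 at 22.4 CPM.

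For 7 of the named members the changes against day 0 at day 1 and at day 12 differed by more than the fold limit of 1.5 with an adjusted p under 0.05 in the edgeR test of day 12 against day 1. Others passed that test by adjusted p with smaller differences. Lower at day 12 were Slc7a10 (log2 fold change -4.33), Slc1a5 (-1.22), Slc38a1 (-0.86), Slc1a4 (-0.71) and Slc7a14 (-0.65). Higher at day 12 were Slc6a17 (0.66) and Slc36a1 (0.61).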

How the results depend on the processing

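Of the counts of members called higher and lower under the alternatives, 127 stayed within 1.5 times of the reported count and 11 did not. No share of all genes called is given for the alternatives. The counts therefore do not show whether the members still differ from the background there. Scaled to total counts, 4 members were called lower from day 1 to day 12. With only genes at a mean of at least 1 CPM, the lower calls at day 1 came to 4, those at day 12 to 7 upward and 5 downward, and those from day 1 to day 12 to 2 upward and 4 downward, since fewer members were tested. With no fold change limit, there were 19 upward and 14 downward calls at day 1, 14 downward at day 12, and 14 upward and 13 downward from day 1 to day 12. Leaving out each library in turn gave 4 to 6 upward and 8 to 9 downward calls at day 1, 11 to 12 and 9 to 11 at day 12, and 4 to 6 and 5 to 7 from day 1 to day 12. DESeq2 gave the same 6 counts as edgeR, and every member called by edgeR kept its call and direction. Of the fold changes, 3015 kept their direction and their side of the threshold, 86 lost the call, 28 gained it and 10 changed sign.

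The changes of sign were in Slc7a8 at day 12, at 0.142 with total counts and at -0.111 to 0.001 without single libraries, turning without replicate 4 of day 12, and in Slc38a9 at day 12, at -0.005 with DESeq2 and with the 1 CPM filter, -0.001 in the larger library series alone and -0.014 to 0.039 without single libraries. Neither gene was called in any of these. Total counts in place of TMM moved the median of all genes to 0.21 at day 12 and 0.18 from day 1 to day 12, where lower calls then made up 27.3% of calls in place of 44.7%. The lower calls of Slc7a2 at day 12 (-0.566) and of Slc1a4 (-0.541), Slc38a1 (-0.683) and Slc7a14 (-0.477) from day 1 to day 12 were lost there, as were those of Bcat2 (-0.505), Nupr1 (-0.553) and Cebpg (-0.403) at day 12. The cause was not tested.

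Libraries with the same replicate number did not deviate together: their correlations lay between -0.0255 and 0.0436, and 0 of 15 pairs were over 0.1. With the replicate number as a block, the calls were 5 upward and 8 downward at day 1, 12 and 9 at day 12, and 6 and 7 from day 1 to day 12. Depth limits the 14 tested members with a mean under 1 CPM, and of the members named as losing a call without a single library, only Slc6a17 and Slc7a14 had a mean above that.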
